A study of Homo sapiens with 12 samples.

Results

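The genes described here are 9 named inhibitors of apoptosis: 4 of the BCL2 family (BCL2, BCL2L1, BCL2L2 and BCL2A1), 4 of the inhibitor of apoptosis (IAP) family (XIAP, BIRC2, BIRC5 and BIRC6) and CFLAR. They were taken by name from the 58347 genes counted by RNA sequencing in A375 cells, with earlier results of these data known. Of the 9 genes, 8 were among the 16740 genes with enough counts to be tested, and BCL2A1 was not. A375 is an established BRAF-mutant human melanoma line, so every value below describes 1 cell line. The 12 samples formed 4 groups of 3: cells given the dimethyl sulfoxide (DMSO) vehicle, tretinoin, vemurafenib, or vemurafenib and tretinoin together (the combination), all for 8 h. Vemurafenib blocks the kinase activity of mutant BRAF. Tretinoin, or all-trans retinoic acid, activates retinoic acid receptors. The labels give 5 µM for all 4 groups, even for DMSO, and do not say whether the combination had this dose of each drug.

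Apoptosis is held back at several points. Proteins of the BCL2 type sit on the mitochondrial outer membrane and bind the BH3-only activators and the pore formers BAX and BAK1, so that cytochrome c is kept inside. IAP proteins act further down, where they bind caspases or tag proteins with ubiquitin, and CFLAR (also called FLIP) resembles caspase-8 and blocks its activation at death receptors. In BRAF-mutant melanoma cells, the balance between these guardians and the BH3-only proteins is known as a determinant of whether cells die under BRAF inhibitors.

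The libraries held 13510235 to 21534377 counted fragments each. In the vemurafenib group, 6 of 6 ERK output genes fell, their summed level dropping from 1358 to 1544 CPM in DMSO to 78.7 to 87.9 CPM (counts scaled to a common library size, as edgeR's CPM). The summed level of 4 retinoid response genes was 27.3 to 34.4 CPM in DMSO, 160 to 179 in tretinoin, 82.0 to 89.2 in vemurafenib and 429 to 441 in the combination. DHRS3 made up most of this sum, with a mean of 20.8 CPM in DMSO and 156 in tretinoin. With tretinoin, DHRS3 and CYP26B1 rose at an adjusted P under 0.05 by edgeR, while RARB (adjusted P = 0.101) and CYP26A1 (adjusted P = 0.633) did not pass. With vemurafenib 2 of the 4 rose and 1 fell. Of 7 melanocyte lineage markers 3 passed the count filter. The summed level of the 7 was 25.9 to 30.8 CPM in DMSO, 42.1 to 44.0 in vemurafenib and 38.0 to 39.5 in the combination. MITF was present at 17.6 CPM ± 1.88 (SD, n = 3) in DMSO and 32.4 ± 0.714 in vemurafenib, whereas SOX10, with 97.6% of its exon bases countable, had 0 counts in every library and TYR 0 or 1. Of the markers of other cell types, 1 of 4 leukocyte, 3 of 3 endothelial and 2 of 3 epithelial markers were tested, with summed levels between 0.838 and 35.6 CPM. The epithelial sum reached 26.6 to 35.6 CPM in the combination, so these markers were not all far below the lineage markers. They also moved with treatment, the epithelial sum from 12.5 to 16.4 CPM in DMSO to 29.4 to 32.1 in vemurafenib, and their part in the results below was not tested. In RNA from whole cultures, fewer cells of a kind and less RNA per cell cannot be told apart. The treatments were applied in triplicate to plated dishes, and no source used here says that the 3 samples of a group were independent experiments, so the P values measure the spread between these samples, which may be technical.

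The 9 genes spanned a wide range of levels. As FPKM, fragments per kilobase of countable exon scaled to library size and computed here, BIRC5 led in DMSO at 53.8 ± 5.27 (SD, n = 3), followed by BCL2L1 at 45.9 ± 3.99, and these neighbors overlapped within their SD. BIRC2 at 16.3 FPKM, BCL2L2 at 10.8, XIAP at 4.77 and BIRC6 at 3.18 came next and were each separated from their neighbors by more than the SD. BCL2 itself stood seventh among the 9, at 1.27 ± 0.0969 FPKM, ahead of CFLAR at 0.507 ± 0.0568 and BCL2A1 at 0.196. The order was kept in tretinoin. In vemurafenib, CFLAR (0.795 ± 0.0218 FPKM) and BCL2 (0.756 ± 0.0790) lay within their SD of each other, and in the combination CFLAR (0.834 ± 0.0478) stood above BCL2 (0.580 ± 0.0213). Exon bases shared with another gene could not be counted, and 43.0% of the exon bases of BCL2L1 are shared with the antisense gene ABALON. With all exon bases in the length, BCL2L1 stood at 26.2 FPKM in DMSO and kept its place. By that length CFLAR was below BCL2 in vemurafenib (0.699 against 0.756 FPKM) and above it in the combination (0.733 against 0.580).

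**Figure D1:**
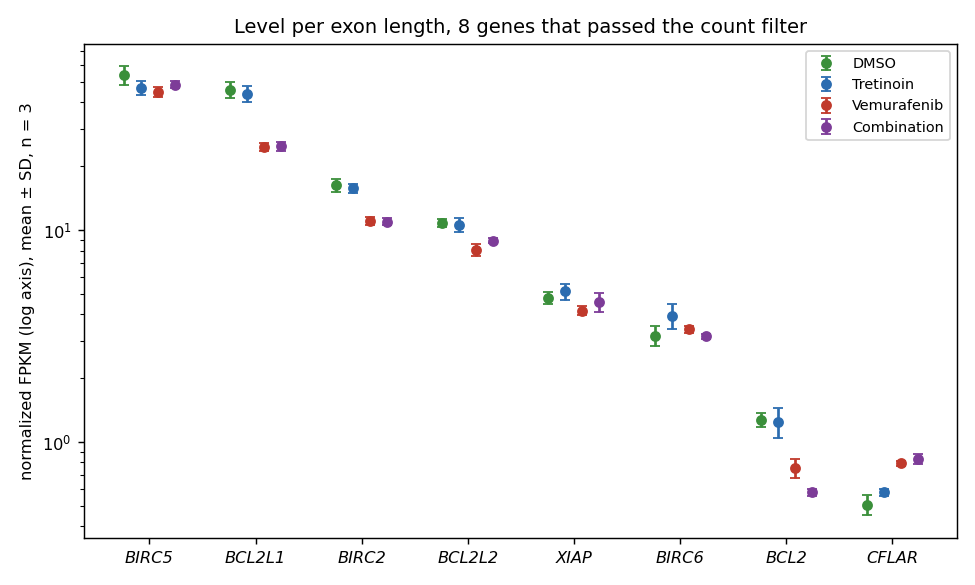
Level per exon length of the 8 tested genes, as FPKM on a log axis, with genes on the horizontal axis in the order of their DMSO level. Points are group means and bars the SD of 3 samples, colored by treatment. BIRC5 leads in every group, and by countable exon length CFLAR reaches or passes BCL2 in the 2 groups that received vemurafenib.

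Vemurafenib lowered the RNA of most of these guardians and raised 1 of them. Relative to DMSO, 5 of the 8 tested genes fell (BCL2, BCL2L1, BCL2L2, BIRC2 and BIRC5) and CFLAR rose, while XIAP and BIRC6 did not pass the test. Among all genes tested, 26.3% fell and 26.4% rose, so that 52.6% were called in either direction. The median log2 fold change of the 8 genes was -0.34, against 0.02 over all genes tested. Calls were made by edgeR's quasi-likelihood test with a Benjamini-Hochberg adjusted P under 0.05.

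BCL2L1, on chromosome 20 (GRCh38, 31664452 to 31723989, minus strand), encodes BCL-XL, a guardian of the mitochondrial membrane, and showed the largest fall of the tested members. Its level was 78.6, 93.6 and 88.0 CPM in the DMSO samples and 45.5, 45.4 and 48.8 CPM in the vemurafenib samples. The groups were well apart, with every vemurafenib sample below every DMSO sample. The log2 fold change was -0.90 (SE 0.08, adjusted P = 5.15e-08 by edgeR), a 1.86-fold lower level. ABALON, whose exons overlap it on the other strand, had 9 to 29 counts per library, and fragments over the shared bases were assigned to neither gene.

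BCL2, the founding member of the family, on chromosome 18 (63123346 to 63320128, minus strand), was at 15.98, 13.71 and 15.04 CPM in DMSO and at 7.89, 9.04 and 9.73 CPM in vemurafenib. Again the groups did not overlap. It fell by 0.75 on the log2 scale (SE 0.12, adjusted P = 7.16e-05 by edgeR), to 59.5% of the DMSO level. BCL2L2, which encodes the related guardian BCL-W, on chromosome 14 (23298790 to 23311759, plus strand), gave 35.4, 32.6 and 35.0 CPM in DMSO and 27.5, 24.6 and 24.5 in vemurafenib. This was a smaller and still separate fall, with a log2 fold change of -0.43 (SE 0.08, adjusted P = 0.000263). BCL2L2 shares 19.4% of its exon bases with the read-through gene BCL2L2-PABPN1, which had 0 to 3 counts, and 4.92% with PPP1R3E on the other strand. PPP1R3E went from 19 to 35 counts in DMSO to 72 to 89 in vemurafenib, and the part of this overlap in the BCL2L2 result was not tested. BCL2A1, on chromosome 15 (79960889 to 79971446, minus strand), encodes the guardian BFL-1, which is under MITF control in pigmented melanoma cells. It had 2, 6 and 2 counts in the DMSO samples and 1, 2 and 3 in vemurafenib, too few for a test or a fold.

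**Figure D2:**
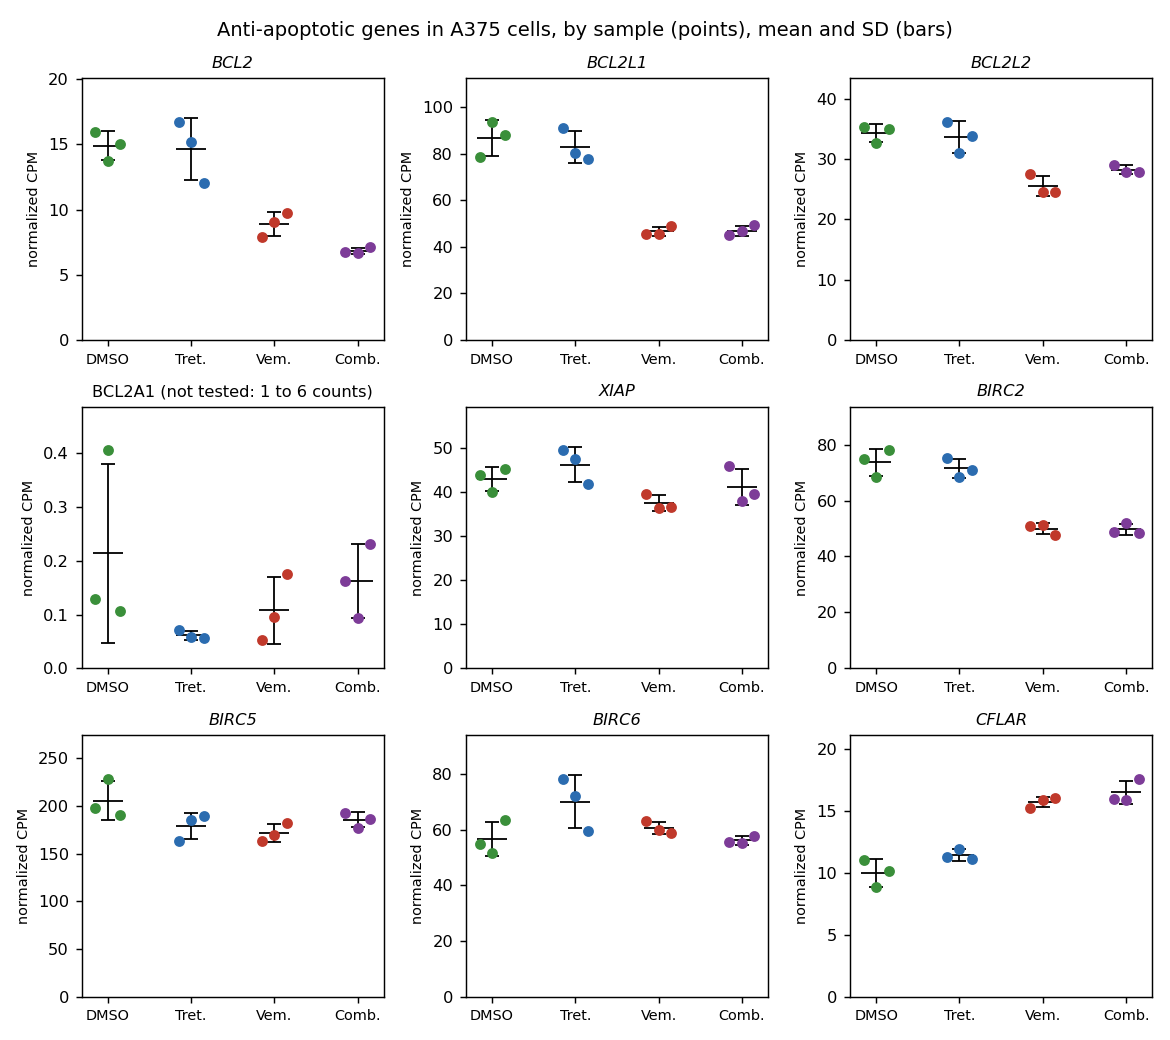
Level of the 9 genes in every sample, in CPM on axes that start at 0, with a panel per gene and the 4 treatments on the horizontal axis. Points are samples, and bars are the group mean and SD with n = 3. For BCL2, BCL2L1, BCL2L2 and BIRC2 the vemurafenib and combination samples lie below all DMSO samples, for CFLAR they lie above, and BCL2A1 rests on 1 to 6 counts per library.

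Among the 4 IAP genes, BIRC2 fell most. It encodes cIAP1, a ubiquitin ligase that joins TRAF2 at tumor necrosis factor receptors, and lies on chromosome 11 (102347211 to 102378670, plus strand). The DMSO samples held 74.8, 68.4 and 77.9 CPM and the vemurafenib samples 51.0, 51.2 and 47.7. The vemurafenib samples were close to each other and all lower, with a log2 fold change of -0.56 (SE 0.07, adjusted P = 3.43e-06 by edgeR), or 67.8% of the DMSO level.

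BIRC5 encodes survivin, an IAP protein that serves mainly in the chromosomal passenger complex at mitosis, and lies on chromosome 17 (78214186 to 78225636, plus strand). It gave 198, 228 and 190 CPM in DMSO and 163, 169 and 182 CPM in vemurafenib. The groups did not overlap, but the DMSO samples were widely spread. BIRC5 fell by 0.26 on the log2 scale (SE 0.08, adjusted P = 0.0109 by edgeR), and this call rested on single choices: it was lost with scaling by total counts alone (-0.07, adjusted P = 0.451), without DMSO replicate 2 (-0.18, adjusted P = 0.0794) and without vemurafenib replicate 1 (-0.23, adjusted P = 0.0543).

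XIAP, the IAP protein that inhibits caspases directly, on chromosome X (123859724 to 123913979, plus strand), was at 44.0, 40.1 and 45.2 CPM in DMSO and 39.6, 36.5 and 36.6 in vemurafenib. All vemurafenib samples were below all DMSO samples by a narrow margin, and the difference missed the threshold at -0.20 on the log2 scale (95% interval -0.38 to -0.01, adjusted P = 0.0658 by edgeR). Without DMSO replicate 2 it was called (-0.25, adjusted P = 0.0397), as it was when only these groups were fitted (adjusted P = 0.0336). BIRC6, on chromosome 2 (32357028 to 32618899, plus strand), encodes a very large IAP protein with ubiquitin-conjugating activity. Its 54.8, 51.5 and 63.4 CPM in DMSO overlapped the 63.2, 59.9 and 58.7 CPM in vemurafenib, and the difference of 0.10 had a 95% interval of -0.10 to 0.29.

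CFLAR went the other way. It lies on chromosome 2 (201116104 to 201176687, plus strand), and 88.0% of its exon bases could be counted, the rest being shared with overlapping genes. It had 11.1, 8.85 and 10.2 CPM in the DMSO samples and 15.3, 15.9 and 16.1 CPM in the vemurafenib samples. The vemurafenib samples were tightly grouped and well above the DMSO samples, a 1.57-fold higher level (log2 fold change 0.65, SE 0.10, adjusted P = 3.44e-05 by edgeR). CFLAR-AS1, an antisense gene within the locus, had 1 to 7 counts in any library.

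**Figure D3:**
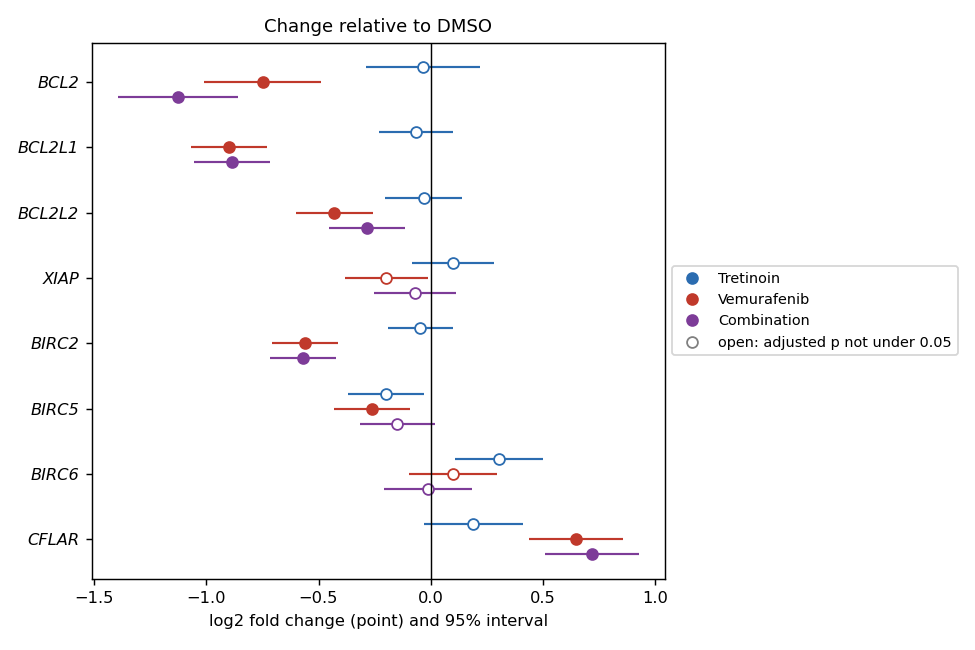
Log2 fold change against DMSO of the 8 tested genes (points) with its 95% interval (lines) for tretinoin, vemurafenib and the combination. Filled points had an adjusted P under 0.05 and open points did not. All tretinoin points are open, and the vemurafenib and combination points are filled for BCL2, BCL2L1, BCL2L2 and BIRC2 below 0 and for CFLAR above 0.

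Sequence upstream of the start is shown for BCL2L1 and BIRC2, which fell together, and around the only match found for CFLAR, which rose. The sequences come from RefSeq (GRCh38.p14), where 7 of the 9 genes were matched in the promoter table. Each is given 5′ to 3′ on the strand of its gene, in lower case with any motif in capitals. The BCL2L1 and BIRC2 sequences stop before annotated exons, whereas all 30 bases of the CFLAR window lie in exons of GENCODE 29, whose first CFLAR start is upstream of the RefSeq one. BCL2L1 covers chr20:31723990-31724213 (minus strand), BIRC2 chr11:102346964-102347210 (plus strand) and CFLAR chr2:201118609-201118638 (plus strand).
BCL2L1: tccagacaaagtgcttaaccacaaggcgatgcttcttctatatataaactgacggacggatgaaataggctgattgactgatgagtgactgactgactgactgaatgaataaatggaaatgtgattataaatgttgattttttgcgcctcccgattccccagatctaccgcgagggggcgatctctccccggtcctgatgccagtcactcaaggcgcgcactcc
BIRC2: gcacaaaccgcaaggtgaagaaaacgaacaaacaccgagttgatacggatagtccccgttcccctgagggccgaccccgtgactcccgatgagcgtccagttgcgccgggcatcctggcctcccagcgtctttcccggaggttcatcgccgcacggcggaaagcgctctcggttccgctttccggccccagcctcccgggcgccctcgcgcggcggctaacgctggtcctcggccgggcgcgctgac
CFLAR: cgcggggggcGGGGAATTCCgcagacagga
The 250 bases upstream of each start were searched on both strands for 11 motifs: NF-kB (GGG, any 3 bases, TTCC), ETS (CCGGAAG), AP-1 (TGANTCA), E-box (CACGTG), M-box (CATGTG), forkhead (GTAAACA), a nuclear receptor half-site (AGGTCA), the cyclic AMP response element (TGACGTCA), the cell cycle homology region (TTTGAA) and the E2F forms TTTCCCGC and TTTGGCGC. The capitals in the CFLAR window are the NF-kB match, which begins 97 bases before the RefSeq start, and 5.61% of 27305 promoters hold these letters. The NF-kB form was chosen after the CFLAR sequence was seen, so this share cannot say how unusual the match is. The BCL2L1 and BIRC2 windows hold none of the 11. The single other match was an M-box 25 bases before the start of BCL2A1, a motif present in 9.54% of promoters.
BCL2A1: tccatgtatcatCATGTGtcataactcagt
This window lies at chr15:79971204-79971233 on the minus strand, with all 30 bases in a GENCODE 29 exon of the gene. These matches describe letters in a window and are not tested binding sites.

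Tretinoin alone called none of the 8 tested genes, where 5.68% of all genes tested were called (3.48% higher and 2.20% lower). At an unadjusted P under 0.05, edgeR counted 2 of them (BIRC5 and BIRC6), and DESeq2 called 0 with or without shrunken fold changes. The median log2 fold change of the 8 was -0.03, against 0.01 over all genes tested. BIRC6 moved most, with 78.2, 72.2 and 59.7 CPM in tretinoin against 54.8, 51.5 and 63.4 in DMSO. Its groups overlapped through 1 sample on each side. The log2 difference of 0.30 (95% interval 0.11 to 0.50) had an adjusted P of 0.0649 by edgeR, and it was called without DMSO replicate 3 (0.40, adjusted P = 0.0320), without tretinoin replicate 3 (0.41, adjusted P = 0.00989), with total counts alone (adjusted P = 0.0382) and with no low-count filter (adjusted P = 0.0473).

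BIRC5 in tretinoin, at 163, 185 and 189 CPM, was lower than in DMSO in every sample, with a log2 difference of -0.20 (95% interval -0.37 to -0.03, adjusted P = 0.146 by edgeR). CFLAR, at 11.3, 11.97 and 11.1 CPM, differed by 0.19 (95% interval -0.03 to 0.41). The other genes had intervals on both sides of 0: BCL2 from -0.29 to 0.22, BCL2L1 from -0.23 to 0.10, BCL2L2 from -0.20 to 0.14, XIAP from -0.08 to 0.28 and BIRC2 from -0.19 to 0.10. BCL2A1 had 1 count in each tretinoin library. Tretinoin replicate 1 stood apart from its group, with a chi-square per degree of freedom of 21.4 and 24.4 against the other tretinoin samples, where all other pairs of replicates gave 2.69 to 9.28, and leaving it out added no call of these genes against DMSO. It did end the BCL2L2 call of the combination against tretinoin (adjusted P = 0.0513).

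**Figure D4:**
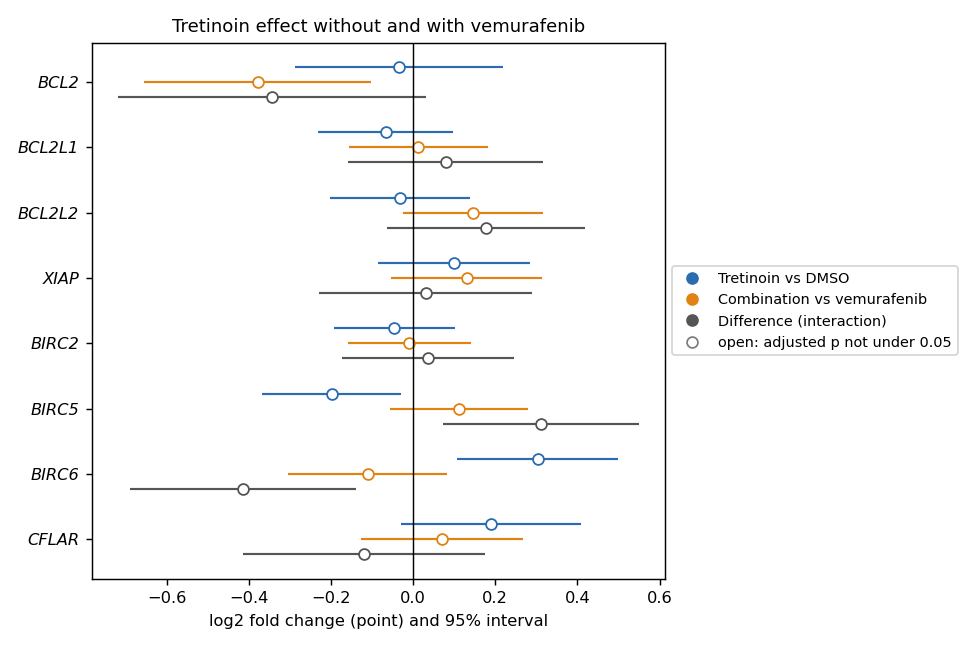
Log2 fold change with its 95% interval for tretinoin against DMSO, for the combination against vemurafenib and for the difference between these effects (interaction), in the 8 tested genes. All points are open, as none had an adjusted P under 0.05. BIRC5 and BIRC6 have intervals off 0 for tretinoin against DMSO and for the interaction, and BCL2 for the combination against vemurafenib.

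In the combination, 4 of the 8 tested genes were lower than in DMSO (BCL2, BCL2L1, BCL2L2 and BIRC2) and CFLAR was higher, where 53.6% of all genes tested were called (26.5% lower and 27.1% higher). The median of the 8 was -0.22, against 0.03 over all genes tested. This comparison shares its DMSO samples with that of vemurafenib, so the values stand side by side and are not independent. BCL2 had 6.71, 6.64 and 7.11 CPM in the combination, lower than any sample of any other group. It fell by 1.13 on the log2 scale against DMSO (SE 0.13, adjusted P = 8.76e-07 by edgeR), 2.18-fold, where vemurafenib alone gave -0.75.

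BCL2L1 at 44.9, 46.7 and 49.1 CPM and BIRC2 at 48.6, 51.8 and 48.5 CPM in the combination overlapped the vemurafenib samples. Against DMSO they fell by 0.89 (SE 0.08, adjusted P = 5.41e-08) and by 0.57 (SE 0.07, adjusted P = 2.61e-06) on the log2 scale. BCL2L2 at 29.1, 27.8 and 27.8 CPM lay between the DMSO and the vemurafenib samples (-0.28, SE 0.08, adjusted P = 0.00649), and its call was lost with scaling by total counts alone (-0.12, adjusted P = 0.265). CFLAR at 16.01, 15.94 and 17.61 CPM was 1.64-fold higher than in DMSO (log2 fold change 0.72, SE 0.10, adjusted P = 9.65e-06).

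The other tested genes were not called in the combination. BIRC5 at 193, 177 and 186 CPM overlapped the DMSO samples (-0.15, 95% interval -0.32 to 0.02), as did XIAP at 45.9, 38.05 and 39.6 CPM (-0.07, 95% interval -0.25 to 0.11). BIRC6 at 55.5, 55.1 and 57.9 CPM lay within the DMSO range (-0.01, 95% interval -0.21 to 0.18). BCL2A1 had 3, 2 and 5 counts.

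Whether tretinoin added to vemurafenib was asked by setting the combination against vemurafenib. None of the 8 genes was called by edgeR, where 4.47% of all genes tested were (2.27% higher and 2.20% lower), with 1 at an unadjusted P under 0.05 and 0 by DESeq2 with or without shrinkage. That gene was BCL2, whose combination samples were all below the vemurafenib samples (-0.38, 95% interval -0.66 to -0.10, adjusted P = 0.140 by edgeR). For the rest, the 95% interval of the log2 difference ran from -0.16 to 0.18 for BCL2L1, from -0.03 to 0.32 for BCL2L2, from -0.05 to 0.31 for XIAP, from -0.16 to 0.14 for BIRC2, from -0.06 to 0.28 for BIRC5, from -0.30 to 0.08 for BIRC6 and from -0.13 to 0.27 for CFLAR.

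The interaction asks whether tretinoin acted differently with and without vemurafenib, as the difference of its log2 effects. Again 0 of the 8 genes were called by edgeR, where 0.806% of all genes tested were (0.382% higher and 0.424% lower), with 2 at an unadjusted P under 0.05 and 0 by DESeq2 with or without shrinkage. The lowest value was that of BIRC6, at -0.41 (95% interval -0.69 to -0.14, adjusted P = 0.164 by edgeR), and it passed the threshold without tretinoin replicate 3 (-0.52, adjusted P = 0.0416). BIRC5 had the highest, 0.31 (95% interval 0.07 to 0.55, adjusted P = 0.220), and BCL2 gave -0.34 (95% interval -0.72 to 0.03). The remaining 5 lay between -0.12 for CFLAR and 0.18 for BCL2L2.

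Set against tretinoin, the combination differed in 6 of the 8 genes, where 49.1% of all genes tested were called (25.0% lower and 24.1% higher). BCL2 (-1.09, SE 0.13, adjusted P = 1.56e-06 by edgeR), BCL2L1 (-0.82), BIRC2 (-0.52), BIRC6 (-0.32, SE 0.09, adjusted P = 0.00868) and BCL2L2 (-0.25, SE 0.08, adjusted P = 0.0151) fell and CFLAR rose (0.53, SE 0.10, adjusted P = 0.000227). The median of the 8 was -0.28, against 0.02 over all genes tested. The BCL2L2 call was lost without tretinoin replicate 1 (adjusted P = 0.0513), with no low-count filter (adjusted P = 0.0825) and with total counts alone (adjusted P = 0.147), and the BIRC6 call with total counts alone (adjusted P = 0.0703). XIAP (-0.17, adjusted P = 0.118) was called without tretinoin replicate 3 (adjusted P = 0.0363) and without combination replicate 1 (adjusted P = 0.0302), and BIRC5 gave 0.05.

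Other anti-apoptotic genes of these families moved in both directions. With vemurafenib, 2 of the 4 tested (MCL1 and BIRC3) fell and NAIP rose, and the combination gave the same counts, with a median of -0.43 and -0.32. Among all genes tested, 52.6% were called with vemurafenib (26.3% lower and 26.4% higher) and 53.6% with the combination (26.5% lower and 27.1% higher). MCL1, the short-lived BCL2-type guardian, had 422, 461 and 439 CPM in DMSO, 457, 464 and 445 in tretinoin, 175, 190 and 168 in vemurafenib and 208, 201 and 195 in the combination. The vemurafenib and combination samples were far below the rest. MCL1 fell by 1.31 with vemurafenib (SE 0.07, adjusted P = 4.34e-11 by edgeR), 2.48-fold, and by 1.13 with the combination (SE 0.07, adjusted P = 2.61e-10), more than any of the 8 tested genes in vemurafenib.

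BIRC3, which encodes cIAP2, the close relative of BIRC2, had 7.54, 10.1 and 11.98 CPM in DMSO and 3.12, 3.18 and 3.55 in vemurafenib, a log2 fold change of -1.60 (SE 0.18, adjusted P = 1.3e-06 by edgeR), and the combination gave -1.37 (SE 0.18, adjusted P = 4.92e-06). NAIP, an IAP better known as an inflammasome sensor, rose from 9.60, 7.36 and 7.76 CPM to 11.2, 11.9 and 10.8 with vemurafenib (0.46, SE 0.12, adjusted P = 0.00498). NAIP has near-identical annotated copies, among which the authors' counting could split its fragments, so its level is uncertain. BIRC7, the melanoma IAP livin, had 9 to 27 counts per library and was not called (0.63 with vemurafenib, adjusted P = 0.0966), except with total counts alone (0.82, adjusted P = 0.0319). BCL2L10 had 0 counts in every library but 1, which had 2.

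The partners that the guardians bind changed in both directions. Of 11 BH3-only and effector genes, vemurafenib raised 5 and lowered 3 (median 0.22), and the combination raised 4 and lowered 3 (median 0.07). These are 8 and 7 calls of 11, where 52.6% and 53.6% of all genes tested were called, and the shares for the lists that follow are read against the same values. BMF, which encodes a BH3-only protein, rose most, by a log2 fold change of 5.09 with vemurafenib (SE 0.10, adjusted P = 6.96e-16 by edgeR) and 5.34 with the combination. HRK, a BH3-only protein that binds BCL-XL, rose by 1.42 and 1.46, and PMAIP1, which encodes the MCL1 partner NOXA, fell by 1.68 with vemurafenib and 1.43 with the combination. BCL2L11, which encodes BIM, was the 1 gene of the lists on apoptosis and mitosis called between the combination and vemurafenib. In that comparison 4.47% of all genes tested were called. BCL2L11 was 0.54 higher in the combination (SE 0.08, adjusted P = 0.000531 by edgeR), and DESeq2 called 2 of the 11 BH3-only and effector genes there.

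Of 8 tested IAP antagonists, cytochrome c and caspases bound by IAPs, 3 were higher and 3 lower with vemurafenib (median 0.11), against 3 higher and 4 lower with the combination (median -0.07). SEPTIN4, whose isoform ARTS antagonizes XIAP, rose by 2.03 with vemurafenib (SE 0.34, adjusted P = 8.17e-05 by edgeR) and 1.79 with the combination. It had only 4 to 7 counts per DMSO library and 21 to 34 in vemurafenib, and its isoforms were not counted apart. CASP9, the initiator caspase that XIAP binds, rose by 0.73 and 0.69, and CYCS, the gene of cytochrome c, fell by 0.70 with vemurafenib and 0.65 with the combination.

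All 10 genes of the death receptor pathway in which CFLAR acts were called with vemurafenib and with the combination, 4 higher and 6 lower in each, with a median of -0.32 and -0.21, where 52.6% and 53.6% of all genes tested were called. TNFRSF10A, a receptor for the death ligand TRAIL, fell by 1.76 with vemurafenib (SE 0.10, adjusted P = 1.54e-10 by edgeR) and by 1.93 with the combination. CASP10, an initiator caspase at death receptors, rose by 0.98 and 0.93. TRAF2, the adaptor that brings cIAP1 to receptors, fell by 0.54 with vemurafenib, and TRADD, an adaptor of the tumor necrosis factor receptor, rose by 0.62 with the combination. With tretinoin alone 1 of the 10 was called, TNFRSF1A (0.26, SE 0.06, adjusted P = 0.0170 by edgeR), where 5.68% of all genes tested were called. The TNFRSF1A call was lost without DMSO replicate 2 (adjusted P = 0.0730) or DMSO replicate 3 (adjusted P = 0.0566). It was also lost with no low-count filter (adjusted P = 0.0822) and when tretinoin and DMSO were fitted alone (adjusted P = 0.0980).

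Of 11 genes of the chromosomal passenger complex and of mitosis, set beside BIRC5, vemurafenib raised 2 and lowered 4 (median -0.004), and the combination raised 1 and lowered 5 (median -0.12). AURKB, the kinase of the complex, fell by 0.33 in each (SE 0.07, adjusted P = 0.000974 with vemurafenib by edgeR), although with total counts alone the vemurafenib call was lost (-0.13, adjusted P = 0.1001). INCENP, its scaffold, rose by 0.18 with vemurafenib (adjusted P = 0.0395), a call lost in every leave-out of a single sample, and CDCA8, which encodes borealin, gave -0.14 with vemurafenib (adjusted P = 0.118) and turned to 0.06 with total counts alone. In the combination CDCA8 fell by 0.18 (adjusted P = 0.0405), a call lost under 5 other settings, among them total counts alone (adjusted P = 0.828) and no low-count filter (adjusted P = 0.144), and without DMSO replicate 2 (adjusted P = 0.152), DMSO replicate 3 (adjusted P = 0.0816) or combination replicate 1 (adjusted P = 0.198). With tretinoin 2 of the 11 were called, PLK1 (-0.26, adjusted P = 0.0304 by edgeR) and CCNB1 (-0.25, adjusted P = 0.0409), where 5.68% of all genes tested were called (3.48% higher and 2.20% lower). Both calls were lost when tretinoin and DMSO were fitted alone (adjusted P = 0.165 and 0.228) and with total counts alone (adjusted P = 0.0962 and 0.0851). They were also lost without DMSO replicate 2 (adjusted P = 0.179 and 0.212), DMSO replicate 3 or tretinoin replicate 2. The CCNB1 call was lost too with no low-count filter and without DMSO replicate 1 or tretinoin replicate 1, and the PLK1 call without tretinoin replicate 3.

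**Figure D5:**
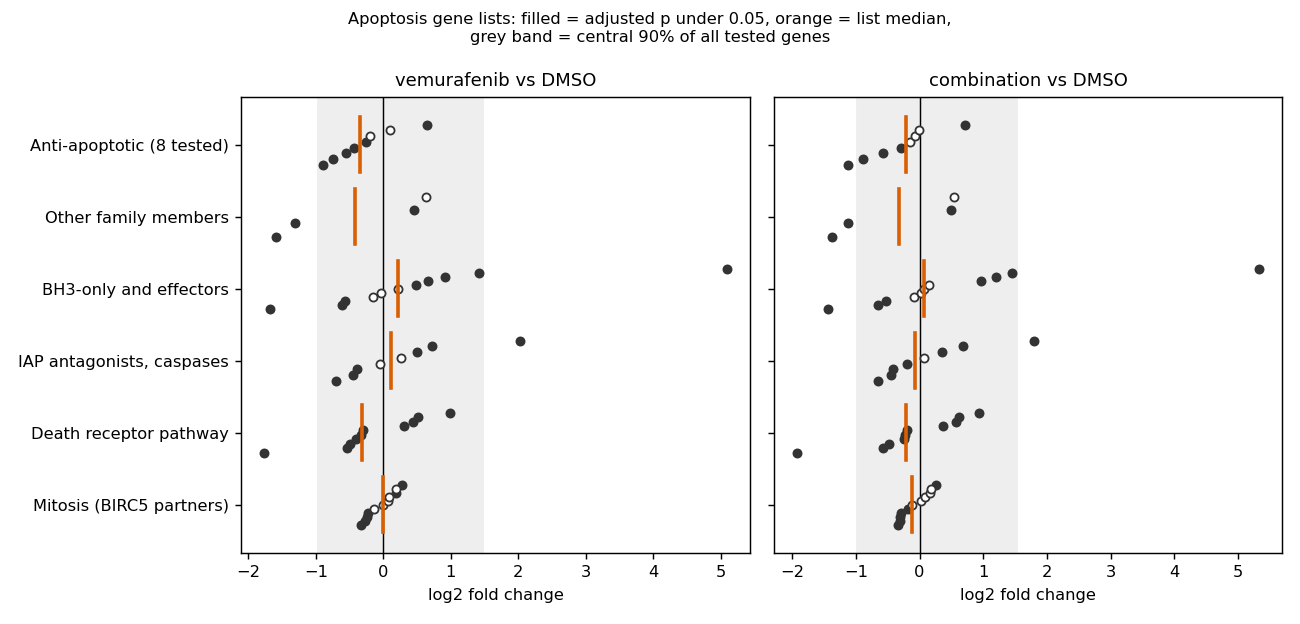
Log2 fold change of each tested gene of the 6 apoptosis and mitosis lists with vemurafenib and with the combination, against DMSO. Points are genes (filled where the adjusted P was under 0.05), orange lines are list medians, and the grey band spans the central 90% of all tested genes. BMF stands far to the right at 5.09 and 5.34, and every list holds filled points on both sides of 0.

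Correlations between members across the 12 samples are given as a description, over samples that share 4 treatments. BCL2L1 and BIRC2 had a Pearson correlation of 0.956 on log2 CPM and BCL2 and BCL2L1 of 0.926, while CFLAR ran against BCL2L1 (-0.950) and BIRC2 (-0.919). BIRC5 and BIRC6 followed neither closely: BIRC5 had 0.242 with BCL2 and 0.428 with BCL2L1, BIRC6 had 0.311 with BCL2L1 and -0.114 with CFLAR, and they had -0.630 with each other. XIAP had 0.618 with BCL2L1 and 0.039 with BIRC5. Of the tested protein-coding genes with a symbol, the 5 whose pattern over the 12 samples was most like that of CFLAR were LETMD1 (0.989), ANKRA2 (0.986), MR1 (0.983), ACBD4 (0.981) and OSBPL7 (0.980). For BCL2 they were SNX9 (0.979), FGFRL1 (0.974), JPT2 (0.974), LEF1 (0.974) and LARP1 (0.973).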

How the data were processed

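The authors aligned reads with STAR 2.5.3a to GRCh38.p10 and deposited raw counts of fragments per GENCODE 27 gene, counted in union mode with the strand ignored. Here, genes were filtered with filterByExpr, which left 16740 of 58347, and scaled by TMM. An edgeR 4.0.16 (R 4.3.3) quasi-likelihood model with a term per group was fitted to all 12 samples, with 6 comparisons, Benjamini-Hochberg adjustment in each and a threshold of 0.05. CPM values use TMM library sizes. Totals of 13510235 to 21534377 counts per library, with a common dispersion of 0.00653, set the precision. Positions and lengths come from GENCODE 29, and copies were sought with blastn 2.17.0.

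Members, lists and tests were chosen with earlier results of these data known. The text names every member and family relative, AURKB, INCENP and CDCA8, and up to 3 called genes per other list with the largest change. The NF-kB motif form was set after the CFLAR sequence was seen. Per-sample columns left unused numbered 0. Alternatives were DESeq2 1.42.0 with and without shrinkage, its size factors, total counts alone, no filter, a minimum of 10 counts in all samples, fits of the compared groups alone, a replicate block and single samples left out.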

Additional observations from a re-analysis of the deposited data

Results flagged for a closer look

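CDH5, an endothelial cadherin among the markers checked for other cell types, was the single gene of the markers and lists that edgeR called in the interaction test, which asks whether the response to tretinoin differed with and without vemurafenib, with an interaction of 2.88 on the log2 scale (SE 0.45, adjusted P = 0.00553 by edgeR). Its level was 4.56 CPM ± 0.533 (SD, n = 3) in DMSO, 13.4 ± 2.22 in tretinoin, 0.137 ± 0.0741 in vemurafenib and 3.15 ± 0.599 in the combination. The vemurafenib libraries held 1 to 4 counts of it, so the fitted value depends on how such low counts are treated. DESeq2 called CDH5 too and also CCND1, an ERK output gene, for which edgeR gave 0.59 (adjusted P = 0.0509).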

How the results depend on the processing

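The calls of BCL2, BCL2L1, BIRC2 and CFLAR in vemurafenib against DMSO, in the combination against DMSO and in the combination against tretinoin were kept under all alternatives run and with any single sample left out. Over all comparisons, called members kept their call in 131 refits under other settings and lost it in 5, and kept it in 99 and lost it in 3 with a sample left out. Scaling by total counts alone mattered most. It moved the median log2 fold change of all genes from 0.02 to 0.21 with vemurafenib, from 0.03 to 0.19 with the combination and from 0.01 to 0.08 with tretinoin, and the share of calls that were higher from 50.1% to 71.4%, from 50.5% to 68.2% and from 61.3% to 81.3%. With it, 1 member was higher in tretinoin (BIRC6), 2 were higher in vemurafenib (BIRC6 and CFLAR) and 3 were lower in the combination than in tretinoin. Values of uncalled genes changed sign there: in tretinoin BCL2 to 0.038, BCL2L1 to 0.010, BCL2L2 to 0.041 and BIRC2 to 0.027; in the combination against DMSO BIRC5 to 0.016, BIRC6 to 0.15 and XIAP to 0.093; in the combination against vemurafenib BCL2L1 to -0.019; in the interaction BCL2L1 to -0.030, BIRC2 to -0.068 and XIAP to -0.074; and with vemurafenib CDCA8 to 0.058. BIRC6 in the combination against DMSO became 0.035 with a minimum of 10 counts in all samples and 0.011 with the compared groups alone. With no low-count filter BIRC2 became 0.0078 between the combination and vemurafenib, and 1 member was called higher in tretinoin. Causes were not tested. Leaving out single samples, the count of members higher in tretinoin ranged from 0 to 1 and that of members lower in the interaction from 0 to 1. The log2 values that crossed 0 ranged from -0.14 to 0.091 for BCL2 and -0.086 to 0.026 for BCL2L2 in tretinoin, from -0.075 to 0.071 for BIRC6 in the combination against DMSO, from -0.024 to 0.047 for BCL2L1 and -0.042 to 0.0085 for BIRC2 in the combination against vemurafenib, from -0.015 to 0.084 for BIRC5 in the combination against tretinoin, and from -0.0080 to 0.089 for BIRC2 and -0.051 to 0.082 for XIAP in the interaction. Deviations from the group means were not shared between samples of the same replicate number (mean correlation -0.031 over 18 pairs, 0 of them over 0.1). No pairing by number was visible, which does not exclude that samples were handled in matched sets. With the replicate number as a block, 5 members fell and 1 rose with vemurafenib, and no member's call changed; the calls of PLK1 and CCNB1 with tretinoin, INCENP with vemurafenib and CDCA8 with the combination were lost. Depth limits BCL2A1, with 1 to 6 counts per library.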
